A study of Homo sapiens with 15 samples.

Results

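Recovery cells are RPE1-hTERT cells, a telomerase-immortalized and non-transformed human retinal pigmented epithelial line, that had grown for weeks with overproduced cyclin E1 and were then grown on without the inducer. They were compared with control cells of the same engineered line that never received the inducer, and the question was which mRNA levels still differed once CCNE1 itself was back near its starting level. The comparison holds 6 of the 15 mRNA sequencing libraries of the study, 3 recovery and 3 control, chosen by their labels alone. The other libraries were 3 each of acute, proliferative crisis and adapted cells, and the adapted libraries were used where a gene's level before and after withdrawal is given.

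All groups carry a stably integrated, doxycycline-inducible CCNE1 cDNA in the pINDUCER20 vector. Control cells received 0 ng/ml doxycycline. Recovery cells had received 20 ng/ml for 31, 42 and 46 d (replicates 1, 2 and 3) and then none for 18, 46 and 17 d, 49, 88 and 63 d in all. These days are the labels' own, and the study's text describes the time off the inducer differently, as a single interval for all replicates. Adapted cells were harvested on 20 ng/ml doxycycline at 39, 41 and 51 d, acute cells at 2 d and crisis cells at 15, 18 and 18 d. The adaptations were begun weeks apart, as independent replicates, and all libraries were prepared together. The study's text gives control cells as day 0, so past exposure to cyclin E, past exposure to doxycycline and time in culture cannot be told apart here. Bulk RNA also does not separate fewer cells of a type from less RNA per cell.

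Both groups had the same broad identity, which was only in part that of pigmented epithelium. The mesenchymal gene VIM (vimentin) stood at 4674, 4858 and 4701 TPM, a measure of the share of all transcripts that a gene takes, in control and 4194, 4173 and 4179 in recovery cells. The simple-epithelium keratin KRT8 stood at 525, 464 and 500 TPM in control and 409, 450 and 541 TPM in recovery. Yet 6 of 10 epithelial markers, CDH1 and EPCAM among them, were under 1 TPM in all 6 libraries. Of 14 markers of retinal pigment epithelium, 9 were under 1 TPM in all 6 libraries, and RPE65 and DCT were listed at 0 in every one, whereas the lineage factors MITF and OTX2 were present in all 6. All 8 blood cell markers were under 1 TPM in all 6 libraries, with summed levels between 0.658 and 1.06 TPM among controls and between 0.406 and 0.966 TPM in recovery, and CD3E was listed at 0.

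Cyclin E binds and activates the kinase CDK2 at the end of G1 and so drives entry into S phase. Before that, in G1, origins of replication are licensed: the origin recognition complex (ORC), CDC6 and CDT1 load MCM helicases onto DNA, and geminin (GMNN) blocks CDT1 once S phase has begun. Many of these genes are activated by E2F transcription factors, which the retinoblastoma protein holds back until CDKs phosphorylate it. Early CDK2 activity shortens the time for licensing, and cells that begin S phase with few loaded MCM complexes are prone to replication stress.

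Promoter stretches are printed for licensing genes that carry an E2F motif and for ANKRD1, the only gene below the stricter threshold whose promoter held the TEAD motif, to show what those genes share in sequence. Capitals mark TTTCCCGC or TTTGGCGC (E2F) or CATTCC (TEAD, the DNA-binding partner of YAP), or their reverse complements. Sequences are RefSeq's, on GRCh38.p14, each read 5′ to 3′ on the strand of the gene.
CDT1, chr16:88803539-88803788, plus strand, the 250 bases before the start: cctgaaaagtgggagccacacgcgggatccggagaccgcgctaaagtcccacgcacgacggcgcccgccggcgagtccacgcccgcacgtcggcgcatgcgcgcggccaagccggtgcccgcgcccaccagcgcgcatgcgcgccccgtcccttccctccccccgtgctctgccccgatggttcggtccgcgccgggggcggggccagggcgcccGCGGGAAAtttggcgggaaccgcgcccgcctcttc
MCM6, chr2:135876506-135876615, minus strand: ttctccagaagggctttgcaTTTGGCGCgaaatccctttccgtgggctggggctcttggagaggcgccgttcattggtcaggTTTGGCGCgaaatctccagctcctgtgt
MCM3, chr6:52284889-52284936, minus strand: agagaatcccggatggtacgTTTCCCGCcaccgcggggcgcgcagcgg
MCM7, chr7:100101557-100101604, minus strand: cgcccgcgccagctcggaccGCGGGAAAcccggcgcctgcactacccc
ANKRD1, chr10:90921088-90921337, minus strand, the 250 bases before the start: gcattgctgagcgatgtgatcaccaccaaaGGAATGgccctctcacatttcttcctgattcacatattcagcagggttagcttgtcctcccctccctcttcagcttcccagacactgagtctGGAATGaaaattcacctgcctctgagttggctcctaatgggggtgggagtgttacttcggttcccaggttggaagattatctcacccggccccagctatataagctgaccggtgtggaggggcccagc
Promoters of 300 bases (250 before and 50 after the start) were searched on both strands. Of the 16 licensing genes, 14 were matched in the RefSeq table with 19 promoters, and 8 of the 14 genes had an E2F motif in at least 1 promoter: ORC3, CDC6, CDT1, GMNN, MCM3, MCM6, MCM7 and MCMBP. Either E2F motif was present in 797 of 35116 promoters (2.27%), TTTCCCGC in 1.63% and TTTGGCGC in 0.652%. The TEAD motif was present in 4928 promoters (14%), and in 3 licensing genes. Of the 4 genes with an adjusted p under 0.01, 3 were matched, and only ANKRD1 held a TEAD motif (2 matches) while none held an E2F motif in these windows. A match is a description of letters and does not show that a factor binds there.

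After withdrawal CCNE1 was back near, and slightly below, its control level. CCNE1 stood at 7.09, 6.27 and 7.88 TPM in control and at 5.52, 5.49 and 5.93 TPM in recovery, against 43.3, 42.6 and 42.6 TPM in adapted cells. The recovery and control libraries did not overlap, with means of 5.65 ± 0.249 and 7.08 ± 0.804 TPM (SD, n = 3 each), but the difference did not pass the test (log2 difference -0.28, SE 0.11, adjusted p = 0.129, limma). An exact two-sided permutation test of the 6 libraries gave p = 0.1, the smallest that 3 against 3 allows. From adapted to recovery cells it fell by 2.72 log2 units (SE 0.11), with an adjusted p of 1.99e-10. TPM does not separate the vector's CCNE1 mRNA from that of the cell's own gene at chr19:29811991-29824312 (plus strand).

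CCNE2, the other E-type cyclin and itself an E2F target, stood at 19.8, 23.4 and 19.8 TPM in control and 22.1, 20.0 and 20.8 TPM in recovery. The ranges overlap, and the log2 difference was 0.00 (SE 0.22, adjusted p = 0.998). In adapted cells CCNE2 was at 16.2, 11.6 and 14.5 TPM, below every recovery library, and the difference of 0.55 did not pass (adjusted p = 0.576).

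**Figure D1:**
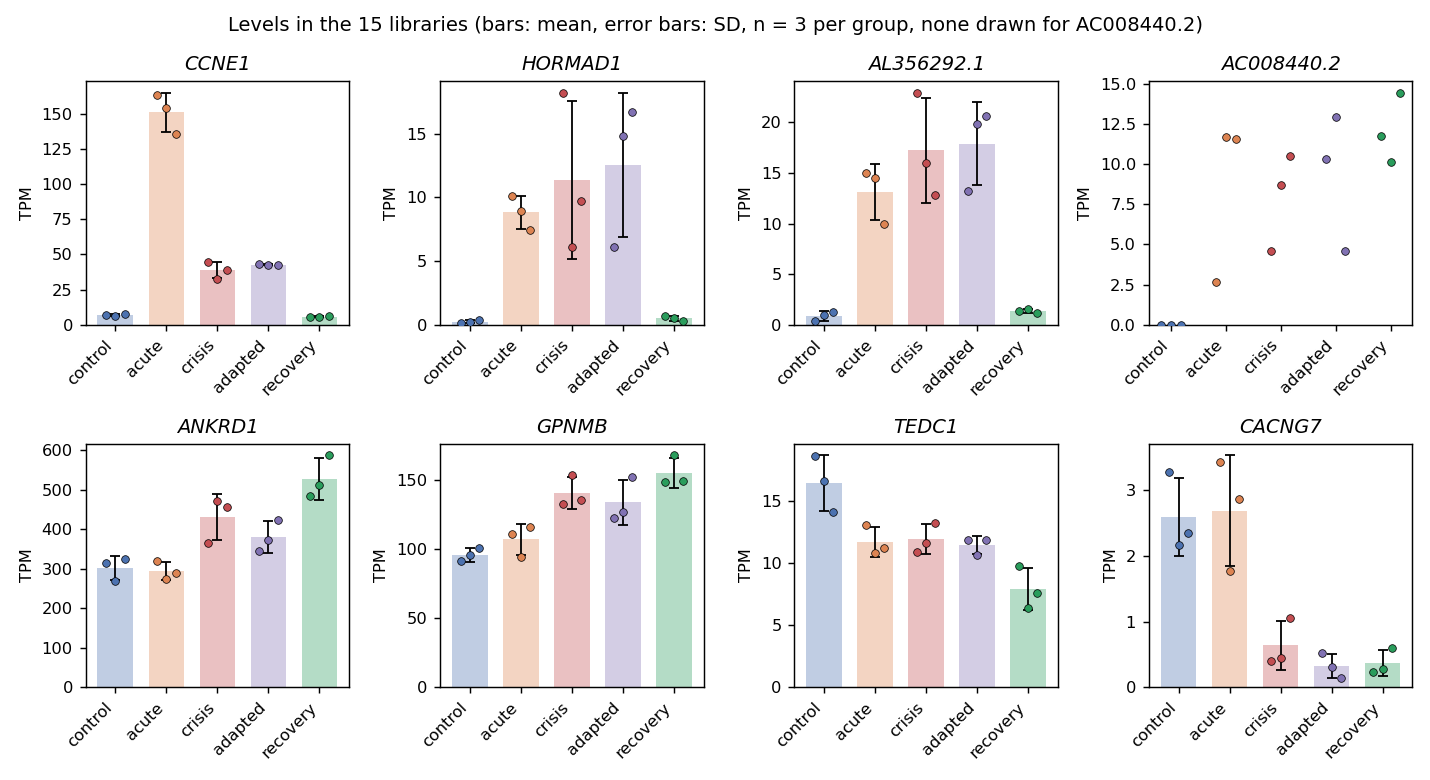
Levels in TPM (y axes, from 0) of CCNE1, HORMAD1, AL356292.1, AC008440.2, ANKRD1, GPNMB, TEDC1 and CACNG7 in each of the 15 libraries, by group on the x axes, with points for libraries and bars and error bars for the mean and SD of 3. CCNE1 runs from 5.49 to 5.93 TPM in recovery and from 6.27 to 7.88 TPM among controls, while the long non-coding RNA AC008440.2, shown as points only, is listed at 0 in control and at 10.2 to 14.5 TPM in recovery.

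Only 3 genes fell between adapted and recovery cells at an adjusted p under 0.01 (0.0294% of the 10196 genes tested) and 0 rose (0% of them). At an adjusted p under 0.05 the counts were again 3 and 0, and at an unadjusted p under 0.05, called nominal from here on, 508 genes were higher (4.98%) and 210 lower (2.06%). Beside CCNE1, the 2 that fell were HORMAD1 and AL356292.1, chosen here after their values were seen. Control and recovery means were 0.249 and 0.493 TPM for HORMAD1 and 0.860 and 1.33 TPM for AL356292.1. Only the induced groups brought both to the mean of 5 TPM over the 15 libraries that testing required. Their tests of recovery against control thus rest on very low values. HORMAD1, a HORMA-domain protein of meiotic chromosomes (chr1:150698060-150720895, minus strand), stood at 6.10, 14.8 and 16.7 TPM in adapted cells, 0.682, 0.512 and 0.284 TPM in recovery and 0.111, 0.234 and 0.401 TPM in control. On withdrawal it fell by 3.08 log2 units (SE 0.32, adjusted p = 0.000125), and recovery did not pass against control (0.25, adjusted p = 0.614).

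AL356292.1, a processed pseudogene at chr1:150780272-150780644, lies 59.4 kb from HORMAD1. Its levels were 13.2, 19.8 and 20.7 TPM in adapted cells, 1.31, 1.55 and 1.13 TPM in recovery and 0.333, 1.01 and 1.24 TPM in control. On withdrawal it fell by 3.00 log2 units (SE 0.23, adjusted p = 1.98e-06), and recovery did not pass against control (0.35, adjusted p = 0.306). All 3 induced groups were higher than every control and recovery library for both genes. CTSS, the lysosomal protease cathepsin S, lies between them and stood at 5.03, 9.35 and 9.15 TPM in adapted, 1.95, 2.35 and 1.87 TPM in recovery and 3.21, 1.87 and 1.55 TPM in control (recovery against adapted -1.49, adjusted p = 0.0675). It too reached the mean needed for testing only through the induced groups.

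Between recovery and control few genes passed at the study's own adjusted p threshold of 0.01: 3 rose (0.0294% of 10196) and 1 fell (0.00981%). At an adjusted p under 0.05, the threshold behind "rose" and "fell" from here on, 59 genes rose (0.579%) and 54 fell (0.53%). After rescaling of the libraries by median-of-ratios factors these counts were 55 and 195, and after removal of the ribosomal RNA precursor-like entries and renewed scaling they were 67 and 303. Nominally, 2011 genes were higher (19.7%) and 905 lower (8.88%). The 3 recovery libraries lay above all 3 control libraries for 1917 genes (18.8%) and below them for 1029 (10.1%), and all 113 genes with an adjusted p under 0.05 were among these. Without control 1, control 2, recovery 2 or recovery 3, the genes with an adjusted p under 0.05 numbered 4, 1, 11 and 6, and without control 3 or recovery 1 they numbered 1655 and 294, so each of the 6 libraries moved this count by more than 1.5 times. A fit to the 6 libraries alone left 3 (3 higher and 0 lower).

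The genes that fell were rich in G and C, and those that rose were poor in them. Median transcript GC content was 63.4% for the 54 that fell, 43.99% for the 59 that rose and 48.5% for all genes. With the genes cut into 5 equal groups by GC content, in the lowest group (27.8 to 42.3%) the median log2 difference was 0.26, and 18 genes rose and 0 fell. In the highest group (57.5 to 73.8%) it was -0.19, and 1 rose and 46 fell. The rank correlation of a gene's level (relative to its mean over libraries) with GC content, a description across genes, was 0.72 in control 1, 0.60 in control 2 and -0.14 in control 3, and -0.28, -0.47 and -0.48 in recovery 1, 2 and 3, so control 1 and control 2 stood apart from control 3. Entries that resemble the ribosomal RNA precursor took 15.0, 15.0 and 12.6% of TPM in control and 9.77, 12.4 and 8.38% in recovery.

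A smooth curve on GC content was therefore removed from each library and the fit repeated over 10185 genes. Then 8 genes rose (0.0785%) and 5 fell (0.0491%) at an adjusted p under 0.05, and nominally 739 were higher (7.26%) and 824 lower (8.09%). All 59 genes that rose and all 54 that fell kept their sign, but 5 and 3 of them stayed under 0.05. GC-corrected values are given beside the results for that reason. The correction also removes any true difference that follows GC content, and which of the 2 values is nearer the true difference was not tested.

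**Figure D2:**
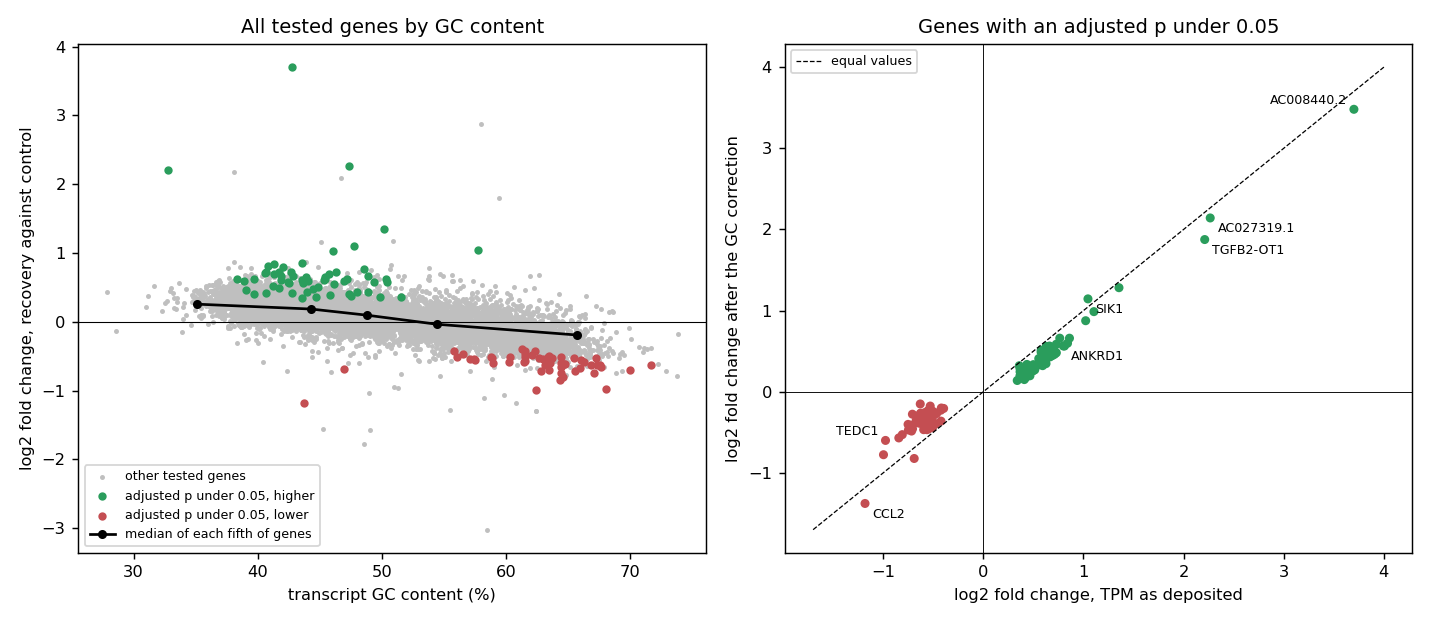
Left, the log2 difference of recovery against control for each tested gene (y axis) by transcript GC content in percent (x axis), with the genes that rose in green, those that fell in red and the medians of 5 equal groups of genes by GC content as a black line that runs from 0.26 to -0.19. Right, the 113 genes with an adjusted p under 0.05, as deposited (x axis) and after the GC correction (y axis), where no gene changes sign.

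Recovery 3 stood apart from the other 2 recovery libraries. At 1.5-fold, 221 genes in it were above both others and 83 below both, against 30 and 47 for recovery 1 and 18 and 40 for recovery 2. It was the lowest recovery library for 13 of 16 licensing genes, 43 of 51 other G1/S genes and 37 of 39 G2 and M phase genes, where 31.9% of all genes had their lowest value there. It was the highest for 17 of 18 NF-kB targets and 20 of 22 matrix genes, against 49.7% of all genes. The median coefficient of variation within a group was 10.0% in control and 9.08% in recovery.

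ANKRD1 (ENSG00000148677.6, chr10:90912096-90921087, minus strand), a nuclear ankyrin-repeat protein known as a target of YAP and TEAD, was the most abundant of the genes with an adjusted p under 0.01. It stood at 316, 268 and 324 TPM in control and at 483, 511 and 587 TPM in recovery. No recovery library came near the highest control, and the mean was 1.74-fold higher (log2 0.80, SE 0.11, adjusted p = 0.00815). The GC-corrected rise was 0.56 (SE 0.10, adjusted p = 0.0471). Adapted cells lay between the groups at 344, 374 and 425 TPM, and the rise from there (0.47, SE 0.11) did not pass (adjusted p = 0.236).

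GPNMB (ENSG00000136235.16, chr7:23235967-23275108, plus strand), a transmembrane glycoprotein of melanosomes and lysosomes, stood at 91.2, 95.7 and 101 TPM in control and 149, 168 and 149 TPM in recovery. The groups are well apart, with a 1.62-fold difference of the means (log2 0.69, SE 0.10, adjusted p = 0.00852). The GC-corrected difference was 0.54, with an adjusted p of 0.0582. Adapted cells stood at 122, 127 and 153 TPM.

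TEDC1 (ENSG00000185347.17, chr14:105489855-105499575, plus strand) encodes a subunit of a complex with delta- and epsilon-tubulin that keeps centrioles stable. It was the 1 gene that fell at the stricter threshold, from 18.6, 16.6 and 14.2 TPM in control to 9.76, 6.39 and 7.63 TPM in recovery. The lowest control was above the highest recovery library, and the log2 difference was -0.98 (SE 0.14, adjusted p = 0.00815). The GC content of TEDC1 is 68.1%, and its corrected difference was -0.60 (SE 0.16, adjusted p = 0.113). Adapted cells were at 11.9, 10.7 and 11.8 TPM, and the further difference of -0.50 did not pass (adjusted p = 0.33).

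AC008440.2 (ENSG00000232220.2, chr19:53874626-53876049, minus strand) is a long non-coding RNA that lies within the span of MYADM on the opposite strand. It was listed at 0 in all 3 control libraries and at 11.7, 10.2 and 14.5 TPM in recovery. No fold is given against a group listed at 0, since the table keeps no depth, and the adjusted p was 0.000658 (0.00715 after the GC correction). With control at 0, AC008440.2 reached the mean of 5 TPM needed for testing only through the other groups, so its test is not independent of that filter. It was present in all other groups too, at 10.3, 12.9 and 4.59 TPM in adapted, 2.67, 11.7 and 11.6 TPM in acute and 4.57, 8.68 and 10.5 TPM in crisis cells. MYADM, a myeloid-associated membrane protein gene, stood at 55.1, 43.2 and 40.0 TPM in control and 49.2, 49.2 and 58.6 TPM in recovery, which overlap. No source used here states whether the quantification used strand, so reads of the overlapping genes may not have been told apart.

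Among the largest rises were other non-coding entries whose control values were low and scattered. Each had a control mean under 5 TPM, so it reached the mean needed for testing only through other groups. AC027319.1 stood at 3.86, 2.24 and 0 TPM in control and 10.6, 11.8 and 10.8 TPM in recovery (2.27, SE 0.39, adjusted p = 0.0237, GC-corrected 2.14 and 0.0582). TGFB2-OT1, which overlaps the TGFB2 locus, stood at 2.70, 0.246 and 7.99 TPM in control and 13.9, 10.7 and 22.6 TPM in recovery (2.21, SE 0.48, adjusted p = 0.0395, GC-corrected 1.88 and 0.111). Its reads may be shared with TGFB2. AC113346.1 and AC037198.2 rose by 1.35 and 1.10 on the log2 scale (adjusted p = 0.0473 and 0.0395), and neither passed after the GC correction (1.28 and 0.99, adjusted p = 0.108 and 0.0944).

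SIK1, a salt-inducible kinase that acts on CREB-dependent transcription, stood at 17.4, 13.2 and 29.0 TPM in control and 38.4, 40.1 and 41.5 TPM in recovery. Its recovery values are close together and, as the rule that chose it required, above all controls (1.04, SE 0.19, adjusted p = 0.0278). The rise remained after the GC correction (1.14, adjusted p = 0.0476). The near-identical copy SIK1B may share its reads. TRIML2, a tripartite-motif-like gene known as a p53 target, stood at 7.26, 9.21 and 10.6 TPM in control and 16.6, 14.9 and 16.2 TPM in recovery (0.76, SE 0.13, adjusted p = 0.0237, GC-corrected 0.66 and 0.0471). Its adapted libraries lay above every recovery library, at 18.2, 19.3 and 21.0 TPM, and recovery against adapted (-0.28) did not pass (adjusted p = 0.692).

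SLAMF7, GBP1 and IL1RAP were also among the 12 largest rises. SLAMF7, an immunoglobulin-family receptor best known from lymphocytes, stood at 6.29, 7.11 and 9.92 TPM in control and 17.9, 17.8 and 14.2 TPM in recovery (1.02, SE 0.21, adjusted p = 0.0336, GC-corrected 0.87 and 0.0846). GBP1, an interferon-induced GTPase, stood at 25.4, 19.3 and 29.6 TPM in control and 42.8, 33.7 and 63.5 TPM in recovery (0.86, SE 0.19, adjusted p = 0.044, GC-corrected 0.66 and 0.132). IL1RAP, the co-receptor for interleukin-1, stood at 5.65, 5.26 and 5.28 TPM in control and 9.18, 9.63 and 12.9 TPM in recovery (0.84, SE 0.14, adjusted p = 0.0237, GC-corrected 0.60 and 0.0889). The control values of IL1RAP lie close together. Lack of overlap between the groups was part of the rule that chose these 3 genes, so it is not a finding about them.

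Among genes averaging 5 TPM or more, the largest fall was that of CCL2, the monocyte-attracting chemokine. CCL2 stood at 15.6, 10.7 and 12.9 TPM in control and 4.33, 4.36 and 7.16 TPM in recovery. The mean fell to 0.403 times control (-1.18, SE 0.27, adjusted p = 0.044), and the GC-corrected difference was larger but just over the threshold (-1.38, adjusted p = 0.0582). Adapted cells were at 2.32, 2.25 and 6.98 TPM.

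PPCS, an enzyme of coenzyme A synthesis, stood at 19.9, 17.0 and 20.3 TPM in control and 11.1, 9.44 and 14.1 TPM in recovery (-0.69, SE 0.14, adjusted p = 0.0336), and was lower still after the GC correction (-0.82, adjusted p = 0.0269). GRIK5, a kainate receptor subunit, stood at 15.7, 15.6 and 12.9 TPM in control and 6.38, 9.86 and 5.05 TPM in recovery (-1.0, SE 0.20, adjusted p = 0.0336, GC-corrected -0.78 and 0.113). MXD3, a MAX partner that represses transcription at MYC sites, stood at 16.8, 14.1 and 14.9 TPM in control and 9.35, 9.02 and 7.71 TPM in recovery (-0.75, SE 0.15, adjusted p = 0.0336, GC-corrected -0.47 and 0.113). Of these 3, only PPCS passed with the correction.

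The other large falls were in FBXL15 (an F-box protein, -0.84, corrected -0.57), BAHCC1 (a chromatin protein with a BAH domain, -0.81, corrected -0.53), CLUH (which binds mRNAs of mitochondrial proteins, -0.72, corrected -0.48), TMEM54 (-0.71, corrected -0.46) and PPDPF (-0.71), with adjusted p from 0.0278 to 0.0443. All 5 were nearer to 0 after the correction, and PPDPF, for example, stood at 185, 166 and 127 TPM in control and 99.8, 92.4 and 96.0 TPM in recovery with a corrected difference of -0.28 (adjusted p = 0.14).

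Of the 16 licensing genes, 2 fell and 0 rose. The study named both, with ATM and H2AFX, from these same libraries, so their directions are not independent evidence. It also stated that none of these genes met its significance criteria, and none had an adjusted p under 0.01 here either. MCM5, a subunit of the replicative helicase, stood at 108, 115 and 84.2 TPM in control and 77.5, 71.4 and 57.5 TPM in recovery. CDT1, which brings MCM complexes to ORC, stood at 19.4, 18.4 and 14.4 TPM in control and 11.7, 11.2 and 7.79 TPM in recovery. For both, control 3 was the lowest control and recovery 3 the lowest recovery library, and the groups did not overlap. MCM5 fell by 0.56 (SE 0.12, adjusted p = 0.0403) and CDT1 fell by 0.72 (SE 0.16, adjusted p = 0.0403), and the corrected values were -0.47 (adjusted p = 0.0582) and -0.41 (adjusted p = 0.126).

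The remaining licensing genes did not pass. MCM2, another helicase subunit and chosen after its values were seen, stood at 92.0, 88.2 and 77.5 TPM in control and 74.5, 69.8 and 51.3 TPM in recovery, without overlap (-0.41, adjusted p = 0.0875, GC-corrected -0.29). ORC4 lay the other way, at 26.2, 31.9 and 35.5 TPM in control and 42.3, 38.8 and 44.1 TPM in recovery (0.42, adjusted p = 0.0738, GC-corrected 0.14), and MCM3, MCM4, MCM6, MCM7, CDC6, GMNN and the other ORC subunits overlapped between the groups. The median of the 16 was -0.04 as deposited, where that of all genes was 0.08, and 1 was nominally higher and 4 nominally lower. With the GC correction the median was -0.23 against 0.00 for all genes, 15 of 16 were below 0, and 10 were nominally lower and 0 nominally higher, but 0 had an adjusted p under 0.05. Without recovery 3 the median was 0.01 as deposited and -0.11 with the correction, with 2 genes nominally lower in each, and without control 3 it was 0.04 as deposited. The nominal counts stand beside all-gene shares of 19.7% higher and 8.88% lower as deposited, and 7.26% and 8.09% with the correction.

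**Figure D3:**
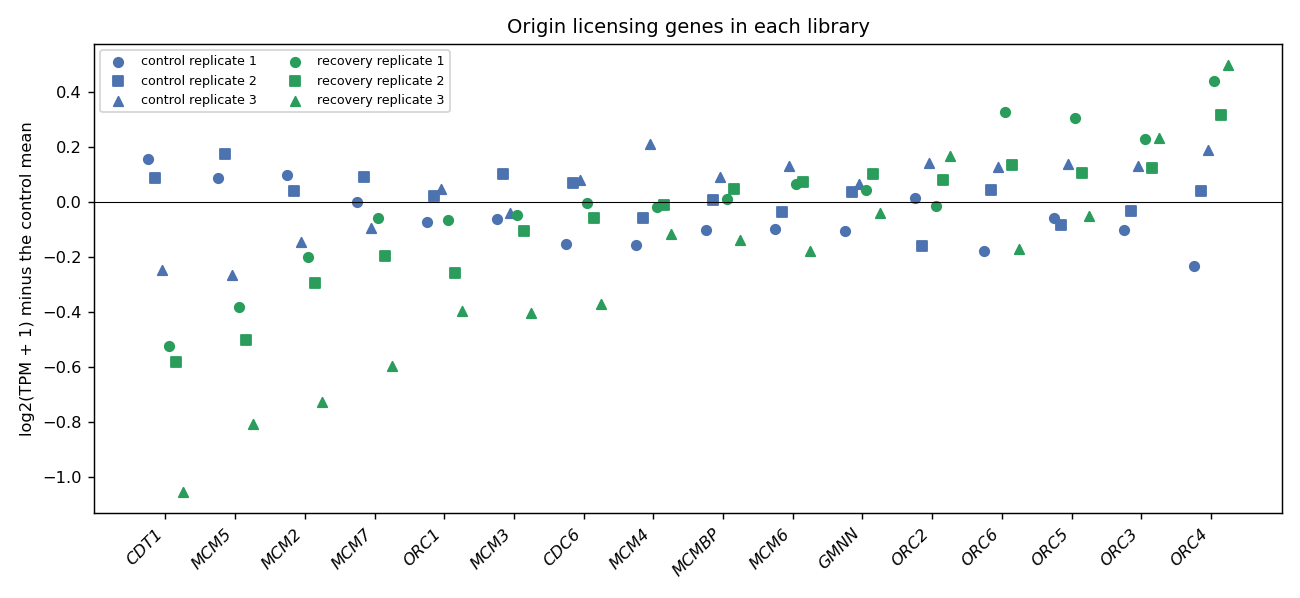
Level of each origin licensing gene in the 3 control and 3 recovery libraries, as log2(TPM + 1) minus the control mean (y axis), with a marker shape for each replicate number. MCM5, CDT1 and MCM2 have all recovery points below the control points, ORC4 has them above, and recovery replicate 3 is lowest for 13 of the 16 genes.

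Among other genes of the G1/S programme, most of them E2F targets, 17 were above control and 34 below as deposited. Without recovery 3 they were evenly split, 25 above and 26 below, and the corrected median was -0.09. Of the 51 tested, 1 fell (MXD3) and 0 rose, with a median over all libraries of -0.07 as deposited and -0.20 with the correction. Nominally, 8 were lower and 0 higher as deposited, and 22 were lower and 0 higher with the correction, which became 6 and 0 without recovery 3. All genes together had 8.88% nominally lower and 19.7% higher as deposited, and 8.09% and 7.26% with the correction. E2F1 stood at 20.2, 19.9 and 19.4 TPM in control and 15.5, 14.4 and 11.8 TPM in recovery, without overlap (-0.50, SE 0.12, adjusted p = 0.0547, GC-corrected -0.30). TK1, thymidine kinase, stood at 94.9, 93.5 and 84.8 TPM in control and 76.7, 67.4 and 54.2 TPM in recovery (-0.47, SE 0.13, adjusted p = 0.0685, GC-corrected -0.28).

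For genes of G2 and M phase the groups overlapped more. Of 39 tested, 0 rose or fell, and the median was -0.02 (-0.16 with the correction), with 1 nominally higher and 3 nominally lower. Against control, 19.7% of all genes were nominally higher and 8.88% lower. Without recovery 3 the direction as deposited turned, with a median of 0.12 and 30 of the 39 above control, and the corrected median was -0.02. The mitotic kinase AURKB stood at 83.2, 68.8 and 72.8 TPM in control and 60.4, 66.0 and 38.8 TPM in recovery (-0.47, adjusted p = 0.103, GC-corrected -0.40), so the recovery 3 value is the lowest of the 6. Against adapted cells the median was -0.26, and 20 of the 39 were nominally lower and 0 higher. Over all genes that median was 0.03, with 2.06% nominally lower and 4.98% higher. For CDC20, the activator of the anaphase-promoting complex, adapted cells were at 153, 156 and 139 TPM and recovery at 122, 117 and 84.2 TPM.

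Cyclin, CDK and RB pathway genes other than these did not pass: 0 of 31 rose or fell, with a median of 0.09 as deposited. With the correction it was 0.00, with 16 above control and 15 below. The CDK inhibitor p27 (CDKN1B) stood at 78.9, 85.1 and 92.4 TPM in control and 95.9, 98.8 and 124 TPM in recovery (0.30, adjusted p = 0.0941, GC-corrected 0.07). CDK4, the cyclin D partner, stood at 478, 490 and 426 TPM in control and 410, 394 and 301 TPM in recovery (-0.34, adjusted p = 0.0926, GC-corrected -0.27). Neither pair of ranges overlaps, which also held for 18.8% of all genes above control and 10.1% below. The pocket protein gene RBL2 stood at 17.5, 17.4 and 21.6 TPM in control and 22.9, 24.0 and 30.0 TPM in recovery (0.42, adjusted p = 0.0817, GC-corrected 0.18).

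In the DNA damage response, 1 of 25 genes rose and 1 fell. ATM, the kinase that responds to double-strand breaks, stood at 22.1, 20.7 and 20.3 TPM in control and 29.8, 30.2 and 37.1 TPM in recovery (0.59, SE 0.13, adjusted p = 0.044). H2AFX, the histone variant that ATM phosphorylates at breaks, stood at 134, 109 and 97.5 TPM in control and 77.8, 72.5 and 52.0 TPM in recovery (-0.75, SE 0.16, adjusted p = 0.0345). The GC content of the pair is far apart, 38.9% and 67.1%, and with the correction they were at 0.32 (adjusted p = 0.214) and -0.40 (adjusted p = 0.108). The median of the list was 0.13 as deposited and -0.05 with the correction, so its sign depends on it.

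Among 24 genes of centriole assembly TEDC1 alone fell and 0 rose. Most of the list lay the other way, with 20 genes above control and 4 below and a median of 0.15, against 0.08 for all genes. With the correction the median was 0.02, with 13 above and 11 below. Nominally, 7 were higher and 3 lower as deposited, where 19.7% and 8.88% of all genes were. TEDC2, the partner of TEDC1 in its complex and chosen after its values were seen, stood at 7.11, 8.05 and 6.46 TPM in control and 6.09, 3.97 and 4.50 TPM in recovery (-0.50, SE 0.14, adjusted p = 0.0674, GC-corrected -0.20). TUBG1, gamma-tubulin, stood at 83.0, 76.3 and 67.8 TPM in control and 59.0, 57.3 and 49.2 TPM in recovery (-0.45, SE 0.11, adjusted p = 0.0515, GC-corrected -0.38 and 0.0582). The epsilon-tubulin gene TUBE1 lay the other way, at 7.09, 8.09 and 8.20 TPM in control and 11.5, 10.2 and 13.6 TPM in recovery (0.53, SE 0.14, adjusted p = 0.0628, GC-corrected 0.29). None of these 3 ranges overlap, and none passed. Of the 24 genes, 9 lay above control without overlap and 3 below, where 18.8% and 10.1% of all genes did.

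Of 24 p53 targets, TRIML2 rose and PHLDA3, an inhibitor of AKT, fell. PHLDA3 stood at 37.6, 45.4 and 42.2 TPM in control and 32.1, 29.3 and 26.0 TPM in recovery (-0.51, SE 0.11, adjusted p = 0.0424, GC-corrected -0.31 and 0.162). The death receptor FAS stood at 18.3, 19.9 and 24.8 TPM in control and 26.6, 26.6 and 34.7 TPM in recovery (0.46, adjusted p = 0.0901, GC-corrected 0.21). The list median was 0.22 as deposited and 0.10 with the correction, and 7 genes were nominally higher and 3 lower as deposited. Without recovery 3 these medians were 0.15 and 0.03, and the counts as deposited were 1 and 3. The shares of all genes, with all libraries, were 19.7% nominally higher and 8.88% lower.

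Among 18 NF-kB targets and cytokines CCL2 alone fell and 0 rose, and the list was otherwise spread over control levels, with a median of 0.02 as deposited and -0.07 with the correction. The difference from adapted cells was wider. Interleukin-6 (IL6) stood at 21.2, 12.2 and 11.7 TPM in control, 16.9, 15.8 and 36.9 TPM in recovery and 10.4, 7.99 and 8.40 TPM in adapted cells. Interleukin-1 beta (IL1B) stood at 34.6, 27.6 and 21.9 TPM in control, 33.1, 30.4 and 39.7 TPM in recovery and 17.7, 13.4 and 13.7 TPM in adapted cells. The neutrophil chemokine CXCL8 stood at 445, 252 and 282 TPM in control, 365, 303 and 523 TPM in recovery and 217, 189 and 180 TPM in adapted cells.

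In all 3 of these genes every recovery library was above every adapted library and the recovery and control ranges overlapped. Recovery against adapted was 1.19 for IL6 (adjusted p = 0.222), 1.16 for IL1B (adjusted p = 0.0675) and 0.98 for CXCL8 (adjusted p = 0.288), none of which passed, and the 3 were chosen after their values were seen. Over the 18 genes the median against adapted cells was 0.46, where that of all genes was 0.03, and 13 were nominally higher, a share to be set beside 4.98% of all genes. Recovery 3 was the highest recovery library in 17 of the 18, and without it the median against control was -0.16 as deposited.

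**Figure D4:**
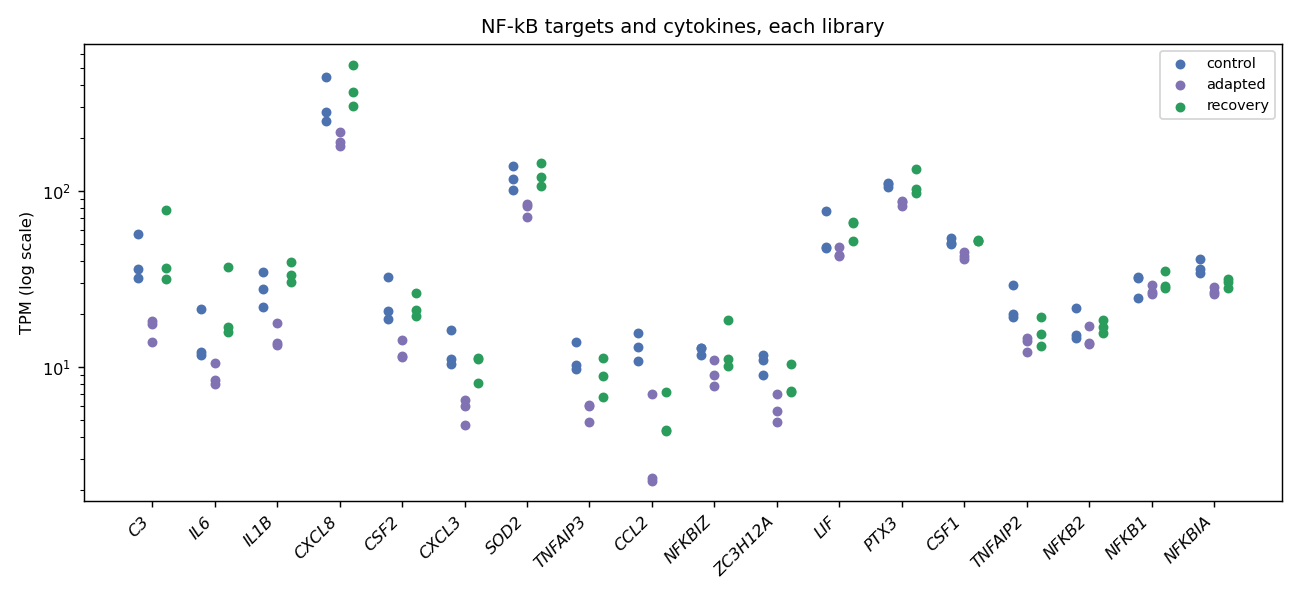
TPM on a log scale (y axis) of the NF-kB targets and cytokines in each control, adapted and recovery library. CCL2 runs from 10.7 to 15.6 TPM among controls and from 4.33 to 7.16 TPM in recovery, while IL1B recovery points (30.4 to 39.7 TPM) lie among or above the control points and above the adapted points (13.4 to 17.7 TPM).

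Interferon-stimulated genes did not pass singly: 0 of 17 rose or fell, while 7 were nominally higher and 0 nominally lower, with a median of 0.28 as deposited. Among all genes 19.7% were nominally higher and 8.88% lower. With the correction the list's median was 0.10 and its counts were 3 and 0, where the shares of all genes were 7.26% and 8.09%. Recovery 3 was the highest recovery library in 15 of the 17. Without it the median was 0.15 with counts of 2 and 1 as deposited, and -0.01 with counts of 1 and 1 with the correction. DDX58, the RNA sensor RIG-I, stood at 6.13, 5.32 and 5.79 TPM in control and 7.12, 7.97 and 10.4 TPM in recovery (0.48, adjusted p = 0.0746, GC-corrected 0.23). HLA class I and antigen processing genes were closer to control, with 0 of 13 rising or falling and a median of -0.04 (0.03 with the correction).

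Targets of YAP and TEAD, which respond to cell shape and tension, held 3 of the rises in 21 genes and 0 falls, where 0.579% of all genes rose, and with the GC correction only ANKRD1 stayed under 0.05. Beside ANKRD1, F3 (tissue factor) rose from 187, 163 and 211 TPM in control to 239, 239 and 319 TPM in recovery (0.50, SE 0.11, adjusted p = 0.044, GC-corrected 0.33 and 0.128). TGFB2, a transforming growth factor beta ligand, rose from 69.3, 65.4 and 84.2 TPM to 94.7, 112 and 197 TPM (0.81, SE 0.18, adjusted p = 0.044, GC-corrected 0.56 and 0.127), and recovery 3 was far above the other 2. Of members chosen after their values were seen, the connective tissue growth factor gene CCN2 stood at 109, 88.3 and 91.4 TPM in control and 110, 110 and 158 TPM in recovery (0.37, adjusted p = 0.0886, GC-corrected 0.33), and AXL, a receptor kinase, lay below control at 374, 376 and 329 against 325, 313 and 295 TPM (-0.21, adjusted p = 0.133, GC-corrected -0.07). Of the 21, 8 were nominally higher and 1 lower as deposited, and 8 and 0 with the correction, with medians of 0.15 and 0.11. Without recovery 3 these counts were 4 and 0 as deposited and 3 and 0 with the correction. With all libraries, 19.7% of all genes were nominally higher and 8.88% lower as deposited, and 7.26% and 8.09% with the correction.

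Contractile genes and targets of SRF held 2 rises in 20 and 0 falls. TPM4, a tropomyosin, rose from 736, 760 and 798 TPM in control to 947, 970 and 1043 TPM in recovery (0.37, SE 0.07, adjusted p = 0.0336, GC-corrected 0.25 and 0.0582). CALD1, caldesmon, rose from 150, 142 and 165 TPM to 201, 212 and 292 TPM (0.60, SE 0.14, adjusted p = 0.044, GC-corrected 0.45 and 0.0995). The list median was 0.11 as deposited, 0.21 with the correction, and -0.02 without recovery 3. Of the 20, 6 were nominally higher and 1 lower as deposited and 11 and 0 with the correction, which became 6 and 0 without recovery 3. Shares over all genes were 19.7% and 8.88% as deposited, and 7.26% and 8.09% with the correction.

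Of 22 matrix protein genes, 0 rose or fell, with a median of 0.18 (0.15 with the correction, -0.01 without recovery 3). LAMC1, a laminin subunit, stood at 172, 181 and 201 TPM in control and 202, 214 and 274 TPM in recovery (0.31, adjusted p = 0.088, GC-corrected 0.20). The 9 markers of mesenchymal cells tested were split, 5 above control and 4 below, with a median of 0.17 (0.02 with the correction). Without overlap, 3 lay above control and 2 below, where 18.8% and 10.1% of all genes did. THY1 was lower, at 403, 391 and 375 TPM in control and 340, 357 and 361 TPM in recovery, as was VIM. FAP, a serine protease of activated fibroblasts, stood at 33.2, 31.4 and 40.3 TPM in control and 51.2, 52.0 and 86.6 TPM in recovery without overlap (0.80, SE 0.21, adjusted p = 0.0622, GC-corrected 0.52 and 0.144). ZEB1, a repressor of epithelial genes, stood at 15.1, 13.6 and 13.8 TPM in control and 19.4, 19.8 and 21.6 TPM in recovery (0.49, adjusted p = 0.0738, GC-corrected 0.26).

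In the lysosome list, 2 of 35 genes rose, GPNMB among them, and 0 fell. The median was 0.08, equal to that of all genes. Of 28 genes of cholesterol and fatty acid synthesis, STARD4, a cholesterol transfer protein, rose from 14.0, 14.4 and 18.6 TPM to 24.8, 23.6 and 30.4 TPM (0.71, SE 0.14, adjusted p = 0.0336, GC-corrected 0.46 and 0.0582). In that list 12 were nominally higher and 2 lower as deposited, 5 and 1 with the correction, with medians of 0.19 and 0.09. For all genes the nominal shares were 19.7% and 8.88% as deposited, and 7.26% and 8.09% with the correction.

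The mitochondrial genome and the nuclear genes of the respiratory chain had medians of opposite sign. As deposited, 6385 of the 10196 genes tested were above control. All 13 mRNAs encoded by mitochondrial DNA were above control, with a median of 0.35 (0.16 with the correction), but 0 passed an adjusted p of 0.05. Single libraries moved this: without control 3 the median was 0.55 and 10 of the 13 passed. Of all 10196 genes, 1169 then passed as higher too. Without control 1, control 2 or recovery 3 the median of the 13 was 0.25, 0.22 and 0.23, and 1 was nominally higher each time. With all libraries 8 of the 13 were, where 19.7% of all genes were nominally higher. MT-ATP8, an ATP synthase subunit, stood at 1044, 1317 and 1849 TPM in control and 1797, 1755 and 2522 TPM in recovery, which overlap (0.55, SE 0.16, adjusted p = 0.0738, GC-corrected 0.29). Of 61 nuclear genes 1 fell and 0 rose, with a median of -0.04 (-0.12). NDUFS7, a complex I subunit, fell from 44.9, 39.8 and 41.3 TPM to 31.5, 29.8 and 25.2 TPM (-0.53, SE 0.12, adjusted p = 0.0428, GC-corrected -0.23 and 0.246).

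Among genes of protein synthesis and folding 0 rose or fell. Of 77 cytosolic ribosomal protein genes 0 rose or fell (median -0.02), though with the correction 67 of them were below control (median -0.08, where that of all genes was -0.005). Of 28 ribosome biogenesis genes 0 rose or fell (median -0.01). ER chaperones had a median of 0.18, with 0 of 20 rising or falling and 10 nominally higher and 1 nominally lower (6 and 0 with the correction), where 19.7% of all genes were nominally higher. HSP90B1, the ER form of HSP90, stood at 888, 957 and 1123 TPM in control and 1139, 1297 and 1504 TPM in recovery (0.41, adjusted p = 0.0749, GC-corrected 0.17). For 29 genes of the ATF4 response, 19 heat shock proteins, 25 genes of glycolysis and hypoxia, 20 NRF2 targets and 20 immediate early genes, 0 rose or fell in each, with medians from -0.07 to 0.12.

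Among 13 senescence markers LMNA, which encodes the nuclear lamins A and C, fell and 0 rose. LMNA stood at 640, 630 and 583 TPM in control and 460, 471 and 452 TPM in recovery, close together within each group and far apart between them (-0.42, SE 0.09, adjusted p = 0.0403, GC-corrected -0.20 and 0.134). CDKN2A, the locus of p16, stood at 150, 135 and 128 TPM in control and 115, 109 and 116 TPM in recovery (-0.28, adjusted p = 0.12, GC-corrected -0.11). Of 31 chromatin modifiers 0 rose or fell, while 11 were nominally higher and 0 nominally lower (3 and 2 with the correction). The same shares over all genes were 19.7% and 8.88% (7.26% and 8.09% with the correction). DNMT1, the maintenance DNA methyltransferase, stood at 137, 145 and 151 TPM in control and 193, 180 and 169 TPM in recovery (0.32, adjusted p = 0.0738, GC-corrected 0.35 and 0.14).

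**Figure D5:**
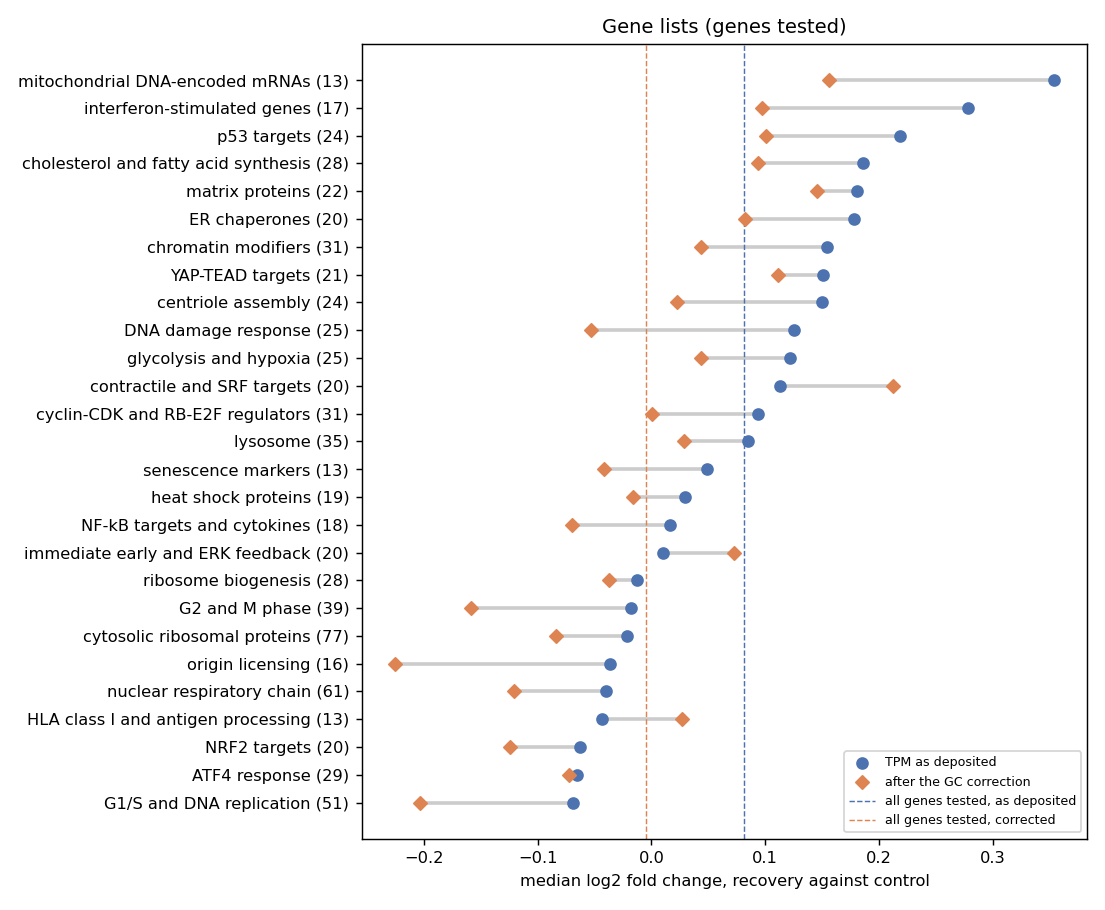
Median log2 difference of recovery against control (x axis) for each gene list, with the number of genes tested in brackets, as deposited (circles) and after the GC correction (diamonds). Dashed lines mark all genes at 0.08 and 0.00, and the licensing and G1/S lists move from -0.04 and -0.07 to -0.23 and -0.20.

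The 13 genes with an adjusted p under 0.05 after the GC correction were AC008440.2, ANKRD1, SIK1, TRIML2, NECTIN2, PDE4DIP, PTMS and VASP, which rose, and PPCS, CTSC, GADD45GIP1, GUK1 and RAMAC, which fell. Those not yet described were chosen for their corrected values. PDE4DIP, a Golgi and centrosome scaffold that binds phosphodiesterase, stood at 56.1, 50.8 and 55.6 TPM in control, 74.9, 90.2 and 79.3 TPM in recovery and 56.8, 55.3 and 51.8 TPM in adapted cells (0.58, adjusted p = 0.0237, corrected 0.51 and 0.0476). Its adapted libraries lay at the control level, below every recovery library, and recovery against adapted was 0.56 (adjusted p = 0.0675). GUK1, guanylate kinase, stood at 179, 166 and 159 TPM in control and 104, 105 and 116 TPM in recovery (-0.63, adjusted p = 0.0237, corrected -0.38 and 0.0476).

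GADD45GIP1, a protein of the mitochondrial ribosome, stood at 45.8, 39.9 and 37.5 TPM in control and 29.6, 26.1 and 25.3 TPM in recovery (-0.59, adjusted p = 0.0336, corrected -0.42 and 0.0269). VASP, which promotes actin filament growth, stood at 120, 108 and 97.3 TPM in control and 126, 136 and 143 TPM in recovery, and NECTIN2, a cell adhesion molecule, at 42.4, 43.3 and 37.7 and at 46.9, 48.8 and 49.5 TPM. Both were above control without overlap, as were 18.8% of all genes. They did not pass as deposited (0.31 and 0.23, adjusted p = 0.103 and 0.116), and passed only with the correction (0.46 and 0.42, both adjusted p = 0.0269). PTMS (parathymosin), CTSC (cathepsin C) and RAMAC (an activator of mRNA cap methylation) likewise passed only with it, at 0.53, -0.41 and -0.60.

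Genes with a mean from 1 to under 5 TPM were tested in a wider fit of 13933 genes, and 4 of them met the rule for description there, 3 that rose and 1 that fell. CACNG7, a transmembrane regulator of AMPA receptors (chr19:53909278-53943950, plus strand), fell. It stood at 3.26, 2.16 and 2.34 TPM in control and 0.230, 0.282 and 0.592 TPM in recovery (-1.39, SE 0.22, adjusted p = 0.029, corrected -1.19 and 0.0635). Acute cells were still at 3.42, 1.76 and 2.86 TPM, whereas crisis cells were at 0.402, 0.447 and 1.06 TPM and adapted cells at 0.515, 0.314 and 0.142 TPM. CACNG7 lies 33.2 kb from AC008440.2, and CACNG8, of the same family, ranged from 2.77 to 3.35 TPM among controls and from 3.02 to 3.49 TPM in recovery.

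The 3 that rose are non-coding. AC093591.1, a ribosomal protein pseudogene (RPL21P53), was listed at 0 in control and at 1.49, 2.15 and 1.89 TPM in recovery (adjusted p = 0.0388). With control at 0, it reached the mean needed for testing only through the other groups. PDPK2P stood at 2.44, 3.23 and 2.47 TPM in control and 5.30, 4.89 and 4.92 TPM in recovery (0.71, adjusted p = 0.036, corrected 0.69 and 0.0497), and as a copy of the kinase gene PDPK1 it may share that gene's reads. AC026954.3 stood at 0.635, 0.826 and 1.48 TPM in control and 3.31, 2.97 and 6.91 TPM in recovery (1.40, adjusted p = 0.0469). All 3 pairs of ranges are apart, as the rule required, at levels where single reads may weigh heavily and the depth is unknown.

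Over the nuclear chromosomes, the median differences as deposited ran from -0.14 on the GC-rich chromosome 19 (600 genes) to 0.20 on chromosome 13 (178 genes). With the GC correction they ran from -0.03 (chromosome 20) to 0.03 (chromosome 12). The 15 mitochondrial genes tested had medians of 0.27 and 0.14.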

How the data were processed

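The deposited table gives TPM, which the authors obtained with Kallisto on hg38 from single-end NextSeq 500 reads of poly(A)-selected RNA. Its 8 columns of log2 fold changes and adjusted p-values hold the authors' own DESeq2 comparisons and were not used. No source used here gives the annotation release or strand setting. TPM keeps no depth, so counting error is unknown. Columns were matched to groups by their labels.

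Of 60603 entries, 45 pseudoautosomal copies were dropped. The 10196 genes that averaged 5 TPM or more over the 15 libraries were fitted as log2(TPM + 1) in R 4.3.3 with limma 3.58.1 (5 groups, trended empirical Bayes, two-sided, Benjamini-Hochberg over all genes tested). Every difference is on that scale, which understates the change of low genes. "GC-corrected" values come from the same fit after a loess (span 0.3) on GENCODE 44 transcript GC content was removed from each library. Positions are from GENCODE 44. Tables and figures used Python 3.11.15, pandas 2.3.3, NumPy 2.4.6 and matplotlib 3.10.9. Simulated data for this comparison (10185 genes, 100 changed at each size) were drawn without a trend on GC content. There the fit recovered 58% of changes of 0.5 and 94% of changes of 1 at an adjusted p under 0.05, and 30% and 91% under 0.01. The real libraries do hold such a trend, so these shares may not apply to them.

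Genes were described if the study named them for this comparison, if their adjusted p was under 0.01, if they were among the 12 largest rises or falls without overlap under 0.05, if they were among the 3 smallest p of a list, or, from 1 to under 5 TPM, among the 5 largest rises or falls. Others are named for a neighbouring position, as identity checks or as chosen after their values were seen, and some genes that met the rule are not reported here. Genes and lists were chosen with earlier results of these data known. P-values measure the spread between these libraries. Alternatives are given in the closing section.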

Additional observations from a re-analysis of the deposited data

How the results depend on the processing

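At an adjusted p under 0.01 the 4 genes (3 higher, 1 lower) became 1 (1 and 0) in the fit to the 6 libraries, with median-of-ratios rescaling, a minimum mean of 1 TPM, no variance trend, or the GC correction, also without control 3. They became 0 with the GC correction without recovery 3, with a minimum of 1 TPM and the GC correction, and with the replicate block and the GC correction. With no filter 2 genes were lower, and without ribosomal RNA precursor-like entries 1 was higher and 2 lower. Leaving out 1 library gave 1 to 5 genes (1 to 4 higher, 0 to 1 lower). At an adjusted p under 0.05 there were 113 (59 and 54), with the GC correction 13 (8 and 5), with rescaling 250 (55 and 195), and without the precursor-like entries 370 (67 and 303). There were 3 (3 and 0) in the 6-library fit, 12 (7 and 5) with no filter, 24 (18 and 6) with a minimum of 1 TPM, 7 (4 and 3) with that and the GC correction, and 55 (32 and 23) with no variance trend. The cause of these shifts was not tested. Alternatives with the GC correction that leave out a library or change the minimum, the removal of precursor-like entries and the 0.05 counts under other settings were chosen after seeing the data.

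The replicate block alone gave 3 genes (2 and 1), at 0.05 211 (126 and 85), and with the GC correction 2 (1 and 1) at 0.05. Same-numbered control and recovery libraries correlated at 0.17, -0.02 and 0.29 in their deviations, and control 2 correlated best with recovery 1 (0.21), so the numbers were not taken to pair libraries.

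CCNE1 kept its direction in 20 alternatives (-0.35 to -0.18, adjusted p 0.0906 to 0.374). ANKRD1 ran from 0.53 to 0.86 (adjusted p 0.00707 to 0.109), GPNMB from 0.53 to 0.73 (0.00707 to 0.0891) and TEDC1 from -1.12 to -0.60 (0.00181 to 0.21). CCNE2, at 0.00, was below 0 with the GC correction (-0.26, with the replicate block -0.26, with a minimum of 1 TPM -0.24, without control 3 -0.38, without recovery 3 -0.20), rescaling (-0.074) and removal of precursor-like entries (-0.062), and from -0.039 to 0.079 when 1 library was left out. TPM keeps no depth, so what depth limits at low levels is unknown.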
